A study of Canis lupus familiaris with 24 samples.

Results

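*Insulin* (INS) and *Glucagon* (GCG) are the transcripts of the main islet hormones and were followed here by RT-qPCR in canine cells of day 13. They were chosen by gene symbol and are 2 of the 26 genes measured in the series and 2 of the 13 genes of day 13. Both have values in 8 of the 24 samples, 4 of undifferentiated canine adipose-derived mesenchymal stem cells (cAD-MSCs) and 4 of insulin-producing cells (IPCs), and their earlier stages are not analysed here. By the methods, each of the 4 cell lines came from a different donor dog. Samples with the same number in their titles were taken as the same line, and on that reading the groups are matched by line. The labels give no age for a line. The undifferentiated cells were grown in DMEM, which held serum according to the methods. The IPCs came out of a three-stepwise protocol. Its first step lasted 3 days, by the methods with Chir99021 on the first day and Activin A after that. The second step, of 5 days, added nicotinamide and taurine, the growth factors FGF2 and EGF, retinoic acid, and the blockers DAPT, dorsomorphin and a TGFβ inhibitor. Their last medium, again for 5 days, held Glp-1 and forskolin, inhibitors of PI3K and TGFβ, and again nicotinamide and taurine. The methods also list insulin-transferrin-selenium in the media of every step, apart from the first day, and sodium butyrate in the first step. By the methods, induction media were free of serum and the colonies were enclosed in alginate for the last stage, which the labels do not state. Serum, three-dimensional culture and the medium itself therefore cannot be told apart in this comparison.

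Insulin is made by the beta cells of the islet and lowers blood glucose. Glucagon is made by the alpha cells and raises it by releasing glucose from the liver. The glucagon gene encodes a longer precursor, which alpha cells cut into glucagon and gut cells into GLP-1, the incretin that strengthens insulin release. The last medium held Glp-1 and, by the methods, insulin as peptides. RT-qPCR reads mRNA only, so an added peptide is not counted as transcript. In the embryo, *Ngn3* starts the endocrine programme, and factors such as *MafA* and *NeuroD1* then drive transcription of the insulin gene. Undifferentiated mesenchymal stem cells are not a hormone-producing cell type.

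In RT-qPCR, the fluorescence of a sample passes a set level at its threshold cycle (Ct), so a later Ct means less template. The Ct of *Insulin* in undifferentiated cells was 36.98, 36.01, 36.62 and 36.46 cycles in lines 1 to 4. In IPCs it was 36.81, 36.93, 36.87 and 36.92 cycles. All 4 IPC values lay inside the range of the controls, and line 1 alone had an earlier Ct in IPCs than in its control (a shift of -0.17 cycles). The mean was 36.5 ± 0.402 cycles (SD, n = 4) in controls and 36.9 ± 0.055 cycles in IPCs, a difference of 0.365 cycles (exact two-sided Mann–Whitney U test, p = 0.343). The interval of that difference ran from -0.17 to 0.92 cycles (97.1% coverage, from all differences between an IPC and a control sample). Before division by a reference gene, no difference of *Insulin* between the groups beyond the spread between lines was detected. A raw Ct also depends on the amount of template loaded, which is not corrected for without a reference. Group comparisons by Ct alone, here and below, therefore do not separate expression from input. *Insulin* is the transcript after which the IPCs are labelled, and it was a late signal in both groups.

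*Glucagon* gave Ct values of 36.98, 35.73, 36.65 and 35.98 cycles in the undifferentiated lines 1 to 4. The IPCs of the same lines had 39.70, 39.83, 39.87 and 39.42 cycles. The groups did not overlap, and the Ct of *Glucagon* was later in IPCs by 2.72 to 4.10 cycles within the lines. Its mean moved from 36.3 ± 0.579 to 39.7 ± 0.203 cycles (SD, n = 4), a shift of 3.37 cycles with an interval of 2.44 to 4.14 (exact two-sided Mann–Whitney U test, p = 0.0286, Benjamini-Hochberg adjusted p over the 13 genes = 0.0413). This is the smallest p that 4 samples against 4 can give. By Ct alone, 6 of the 13 genes, or 46.2%, had a later Ct without overlap in the IPC samples, *Glucagon* among them, and 3 genes, or 23.1%, had an earlier one.

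**Figure D1:**
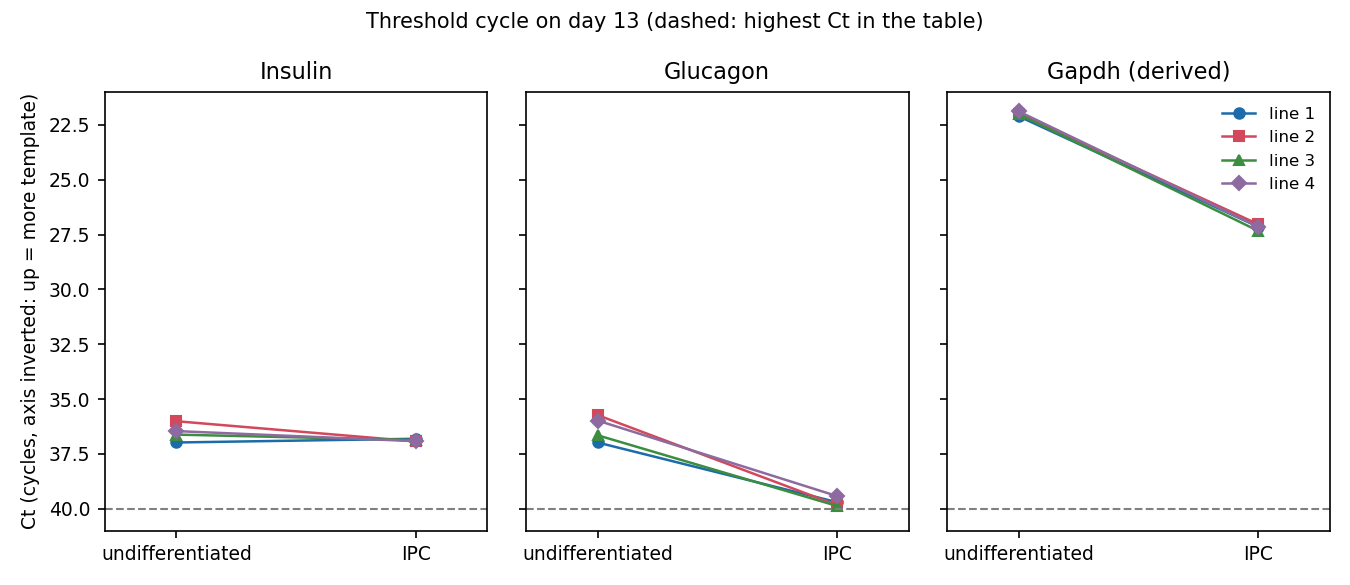
Ct in cycles (inverted axis, so that more template is higher) of *Insulin*, *Glucagon* and the reference *Gapdh* in undifferentiated cells and IPCs of day 13, with 1 marker and connecting line for each cell line and a dashed line at the highest Ct of the table, 40 cycles. *Insulin* stays between 36.01 and 36.98 cycles, while *Glucagon* moves next to the dashed line and *Gapdh* moves later by 5.16 cycles.

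Relative to *Gapdh*, a gene of glycolysis that served as the reference, both hormones were higher in IPCs. The authors deposited a ratio of each gene to *Gapdh*, computed as if template doubled with every cycle. In lines 1 to 4 of the undifferentiated cells, *Insulin* stood at 33.4, 60.1, 40.1 and 41.1 per 1000000 of the *Gapdh* signal. In IPCs it stood at 1227, 1042, 1339.9 and 1136 per 1000000. Even the lowest IPC sample was well above the highest control. Expressed as relative mRNA expression, with the mean of the controls set to 1, *Insulin* was 27.2 ± 2.91 in IPCs against 1 ± 0.263 (SD, n = 4; exact two-sided Mann–Whitney U test, p = 0.0286, adjusted p = 0.0338). Within the lines, the IPCs had 36.7, 17.3, 33.4 and 27.6 times the *Insulin* ratio of their own control in lines 1 to 4, and line 2, whose control was the highest, had the smallest of these changes. Any *Insulin* Ct up to 40 cycles in IPCs would have given the same p on the *Gapdh* scale. Without a reference gene, the value of *Insulin* was 0.754 times the controls and the groups overlapped.

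The ratio of *Glucagon* was 33.4, 73.1, 39.4 and 57.1 per 1000000 of the *Gapdh* signal in the undifferentiated lines 1 to 4. It was 165.5, 139.7, 167.5 and 200.9 per 1000000 in their IPCs. Every IPC sample lay above every control, but the lowest IPC sample was less than 2 times the highest control. The relative mRNA expression was 3.32 ± 0.494 in IPCs against 1 ± 0.354 (SD, n = 4; exact two-sided Mann–Whitney U test, p = 0.0286, adjusted p = 0.0338). Lines 1 to 4 changed by 4.96, 1.91, 4.25 and 3.52 times, again least in line 2. The direction of *Glucagon* turned without a reference gene, at 0.0919 times the controls and with no overlap between the groups. Of the 13 genes, 11 were higher without overlap in IPCs relative to *Gapdh*, a share of 84.6%, and 0 were lower. Being higher on this scale was therefore shared by most genes measured, hormones or not. For *Glucagon* too, any Ct up to 40 cycles in IPCs would have given the same p on this scale. Since the RNA came from whole cultures, fewer cells with a transcript and less transcript per cell cannot be told apart.

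The *Gapdh* Ct is not listed in the tables but follows from each Ct and ratio. The values behind *Insulin* and *Glucagon* were the same within 0.00565 cycles in every sample, so both hormones were divided by a single *Gapdh* measurement. It was 22.1, 22.0, 22.0 and 21.9 cycles in the undifferentiated lines 1 to 4 and 27.1, 27.0, 27.3 and 27.1 cycles in IPCs. *Gapdh* was later in every IPC sample, by 5.16 cycles on average with an interval of 4.91 to 5.44 (exact two-sided Mann–Whitney U test, p = 0.0286). A shift of 5.16 cycles stands for 35.7 times less *Gapdh* template. It entered the relative expression of *Insulin* and *Glucagon* alike, and its origin was not tested. *Ngn3* and *Epac2* shared this *Gapdh* measurement. The other genes were divided by other *Gapdh* values, which small sets of genes shared closely. These moved later by 5.07 to 5.64 cycles except behind *Glut2* and *Glp1r*, where the shift was 1.89 cycles. With that measurement as the reference, which was tried only once the values were known, *Insulin* was 2.77 times and *Glucagon* 0.325 times the controls, both without overlap (exact two-sided Mann–Whitney U test, p = 0.0286 each). In IPCs, the *Gapdh* behind *Glut2* had a mean of 24.5 cycles, against 27.2 cycles behind *Insulin*. Whether it came from the same template input as the hormone Ct is not stated, so these 2 values need not reflect expression.

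**Figure D2:**
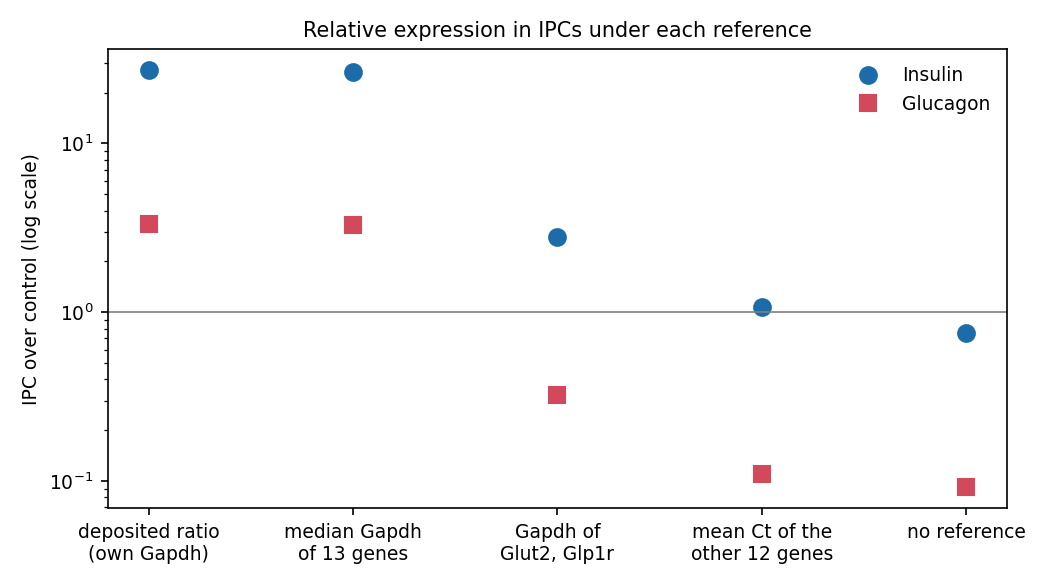
Value of *Insulin* (circles) and *Glucagon* (squares) in IPCs over the controls, on a log scale, under each reference, from the deposited ratio on the left to no reference on the right, with a line at 1. *Insulin* falls from 27.2 to 0.754 and *Glucagon* from 3.32 to 0.0919. Whether the *Gapdh* of *Glut2* and *Glp1r* shared the template input of the hormones is not stated. The distance between the hormones rests on the same hormone Ct values under every reference, so it is 1 observation.

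The latest Ct of the tables is 40 cycles, although the labels give 45 cycles of amplification. The 4 *Glucagon* values of IPCs were 0.30, 0.17, 0.13 and 0.58 cycles short of it in lines 1 to 4. They were the only Ct values of day 13 within 1 cycle of that end. Because *Gapdh* was later in IPCs, a *Glucagon* Ct of exactly 40 cycles would still have given relative mRNA expression of 2.65, 2.45, 3.02 and 2.65 in their lines 1 to 4. The measured values were 3.26, 2.75, 3.30 and 3.96, or 1.09 to 1.49 times as much. In undifferentiated cells the same Ct of 40 cycles would have given only 0.0694 to 0.0811. To match the mean ratio of the controls, *Glucagon* in IPCs would have needed a Ct of 41.3 to 41.6 cycles, later than any Ct listed. On this scale, a *Glucagon* level in IPCs at or below that of the controls lay outside what the table lists. The highest control stood at 1.44, so any Ct up to 40 cycles in IPCs would have separated the groups. The p of the relative expression therefore does not test a change of *Glucagon* apart from *Gapdh*.

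The Ct of *Insulin* in IPCs was farther from that end. To match the mean ratio of its controls, *Insulin* would have needed a Ct of 41.5 to 41.8 cycles, so an *Insulin* level at or below that of the controls also lay outside what the table lists. A Ct of 40 cycles would have given relative mRNA expression of 2.84 to 3.50 for *Insulin* in IPCs, and the measured values were 28.1, 23.9, 30.7 and 26.0 in lines 1 to 4. They were thus 8.40 to 9.13 times the value at a Ct of 40 cycles. The highest *Insulin* control stood at 1.38, so any Ct up to 40 cycles would likewise have separated the groups. The p of the relative expression does not test a change of *Insulin* apart from *Gapdh* either. In undifferentiated cells, *Insulin* lay 3.02 to 3.99 cycles and *Glucagon* 3.02 to 4.27 cycles before 40 cycles. Both hormones were late signals in the controls, at which single wells are least precise, and the number of wells per sample is not given in the sources used here.

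**Figure D3:**
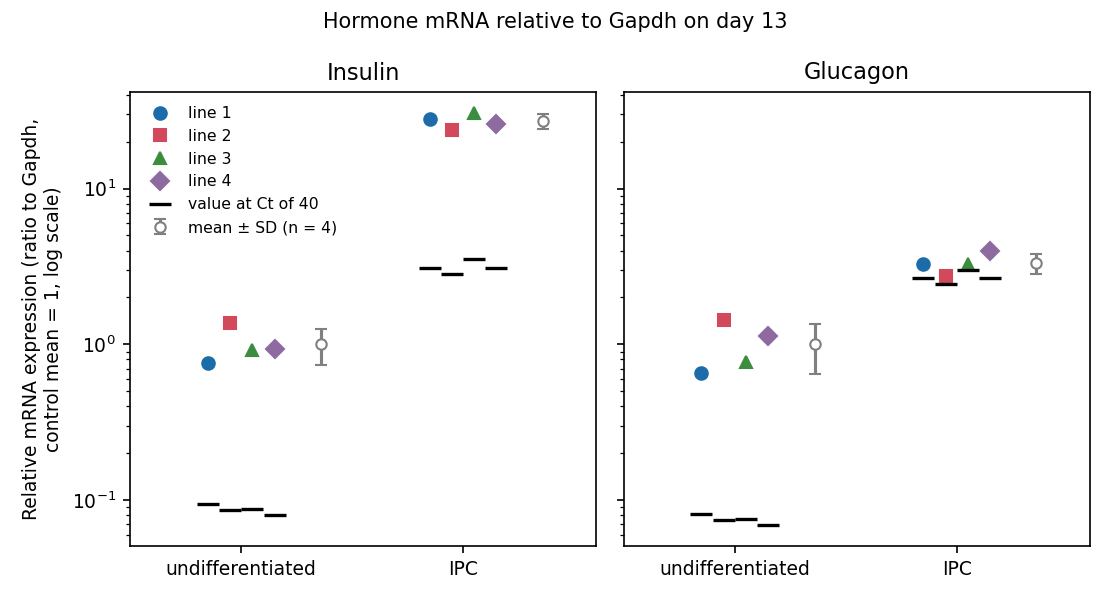
Relative mRNA expression of *Insulin* and *Glucagon* (ratio to *Gapdh*, mean of the controls = 1, log scale) in each line, with the mean ± SD (n = 4) in grey and, as black bars, the value that a Ct of 40 cycles would have given in that sample. *Insulin* in IPCs lies 8.40 to 9.13 times above its bars, whereas *Glucagon* in IPCs lies 1.09 to 1.49 times above them; without a reference gene *Insulin* was 0.754 and *Glucagon* 0.0919 times the controls.

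A comparison of the hormones within a sample needs no reference gene. The Ct of *Glucagon* minus that of *Insulin* was 0, -0.28, 0.03 and -0.48 cycles in the undifferentiated lines 1 to 4. It was 2.89, 2.90, 3.00 and 2.50 cycles in IPCs. The hormones thus had nearly the same Ct in undifferentiated cells, while *Glucagon* trailed *Insulin* in every IPC sample. The mean difference went from -0.18 ± 0.243 to 2.82 ± 0.221 cycles (SD, n = 4), a change of 3.005 cycles with an interval of 2.47 to 3.48 (exact two-sided Mann–Whitney U test, p = 0.0286). With template doubling in each cycle, this is a change of the *Insulin* to *Glucagon* ratio by 8.03 times, with an interval of 5.54 to 11.2 times. These values take the *Glucagon* Ct of IPCs as listed, within 0.58 cycles of the latest Ct of the tables, and setting those 4 Ct values to 45 cycles moved the change from 3.005 to 8.30 cycles. The change was alike in the lines, at 2.89, 3.18, 2.97 and 2.98 cycles in lines 1 to 4. Levels of *Insulin* and *Glucagon* were not compared with each other, since each primer pair has its own efficiency.

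**Figure D4:**
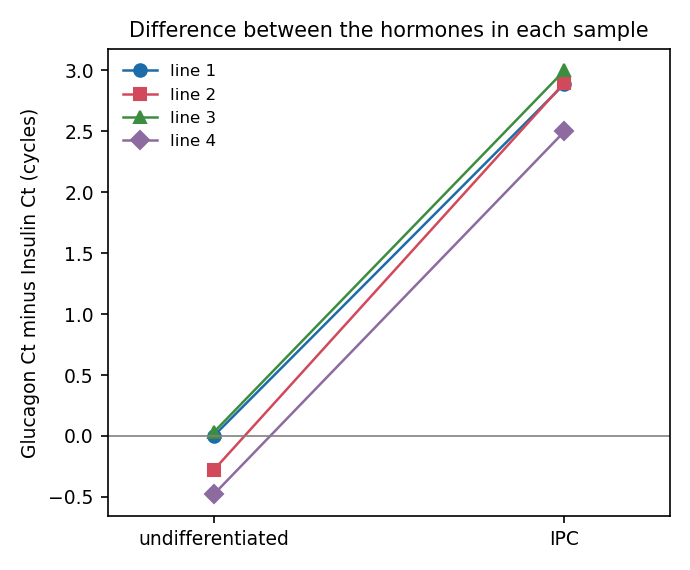
Ct of *Glucagon* minus Ct of *Insulin*, in cycles, in undifferentiated cells and IPCs of day 13, with 1 marker and connecting line for each cell line. The controls lie between -0.48 and 0.03 cycles and the IPCs between 2.50 and 3.00 cycles, with lines that are close to parallel.

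The transcription factors that govern the hormone genes did not move as a block by Ct. The list of endocrine transcription factors of day 13 holds *Ngn3*, *NeuroD1*, *Nkx2.2*, *Nkx6.1*, *Isl1*, *MafA*, *Glis3* and *Rfx6*. Relative to *Gapdh*, 8 of these 8 were higher in IPCs without overlap, beside 84.6% of the 13 genes. Their median was 42.1 times the controls, beside a median of 27.2 over the 13 genes, which is the value of *Insulin*. By Ct alone, 3 were higher, 2 were lower and the others overlapped, beside 23.1% higher and 46.2% lower over the 13 genes. The 3 were *NeuroD1*, *MafA* and *Glis3*. The mean Ct shift was -4.89 cycles for *NeuroD1*, -3.23 cycles for *MafA* and -2.99 cycles for *Glis3*. The 2 were *Isl1*, later by 3.44 cycles, and *Nkx6.1*, later by 2.10 cycles.

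The list of genes that sense glucose and incretins holds *Glut2*, *Glp1r* and *Epac2*. *Glut2* and *Glp1r* were divided by the *Gapdh* values that moved by 1.89 cycles, and *Epac2* by those of the hormones, which moved by 5.16 cycles. Relative to *Gapdh*, 1 of the 3 (*Glut2*, the glucose transporter of beta cells) was higher without overlap, beside 84.6% of the 13 genes. By Ct alone 3 of 3 were lower, beside 46.2% of the 13 genes. When every gene was divided by 1 common *Gapdh* per sample, the median of those derived, 12 of the 13 genes were higher without overlap. The receptor of GLP-1, *Glp1r*, stood at 1.35 times the controls (adjusted p = 0.0619) and the cAMP sensor *Epac2* at 1.32 times (adjusted p = 0.343, exact two-sided Mann–Whitney U tests). In the order of relative mRNA expression in IPCs over the controls, *Insulin* came 7 and *Glucagon* 9 of the 13 genes. By the shift of the Ct, from the earliest to the latest, *Insulin* came 6 and *Glucagon* 11, between *Nkx6.1* and *Isl1*.

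**Figure D5:**
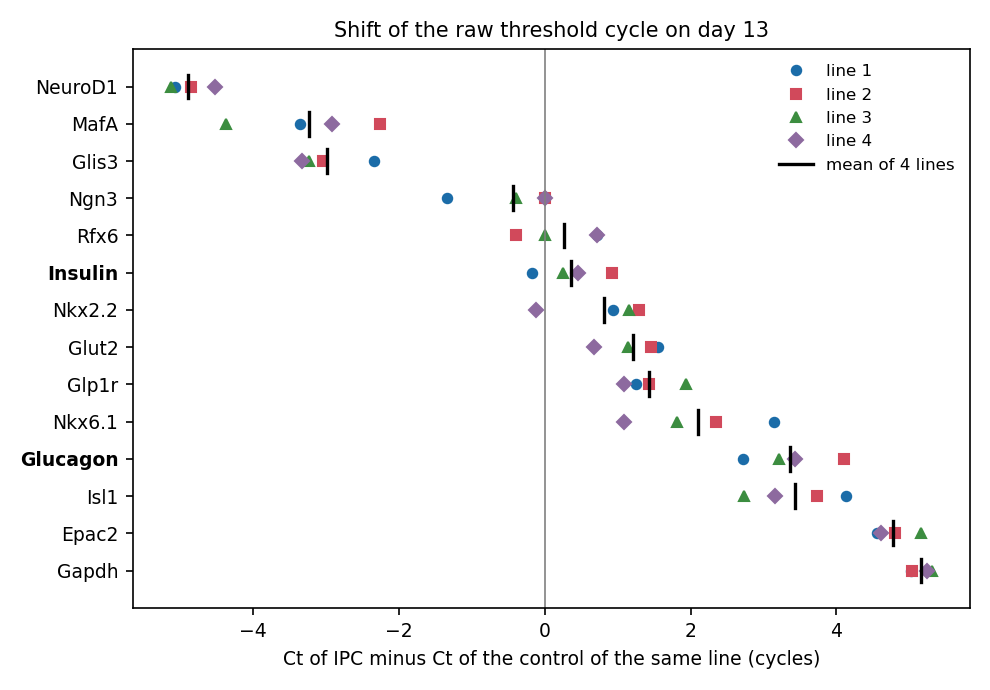
Shift of the raw Ct, in cycles, from the control to the IPCs of the same line for the 13 genes of day 13 and *Gapdh*, sorted by the mean (black bar), with 1 marker for each cell line. *Insulin* lies near 0 with a mean of 0.365 cycles, *Glucagon* at 3.37 cycles, and the *Gapdh* of the hormones at 5.16 cycles, later on average than any gene. The *Gapdh* behind *Glut2* and *Glp1r*, which is not drawn, moved by 1.89 cycles.

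Each hormone was also set against every other gene of day 13 in the same sample, a comparison chosen after the values were seen. Of the 23 pairs, 78.3% changed their Ct difference without overlap between the groups, each with an adjusted p of 0.0365 over the pairs (exact two-sided Mann–Whitney U test). *Insulin* gained on 6 of the 12 other genes, namely *Nkx6.1*, *Isl1*, *Glut2*, *Glp1r*, *Epac2* and *Glucagon*, by 0.840 to 4.42 cycles. It lost against 3 of the 12, *NeuroD1*, *MafA* and *Glis3*, with changes of -3.35 to -5.26 cycles. The 3 pairs of *Insulin* with *Nkx2.2*, *Ngn3* and *Rfx6* overlapped between the groups. *Glucagon* gained on 1 of the 12 other genes, *Epac2*, by 1.42 cycles, and lost against 9 of them, including the pair with *Insulin* already counted. All pairs of *Glucagon* rest on IPC Ct values within 0.58 cycles of the latest Ct of the tables. Its pairs with *Nkx6.1* and *Isl1* overlapped. For *Isl1*, the mean difference was 0.070 cycles. The *Gapdh* values behind *Glut2* and *Glp1r* moved by 1.89 cycles, against 5.16 cycles for those of the hormones. Whether these genes shared the template input of the hormones is not stated, so their pairs may mix expression with input. Relative to each gene's own *Gapdh*, the order was the reverse for *Glucagon*, at 3.32 times the controls against 1.62 for *Glut2* and 1.35 for *Glp1r*.

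By the root mean square difference over the 8 samples, on the scale of the log2 ratio to *Gapdh* relative to the controls, the genes most like *Insulin* were *Nkx2.2* at 0.38, *Ngn3* at 0.67 and *Rfx6* at 0.81. The gene least like it was at 3.68. For *Glucagon* the nearest were *Isl1* at 0.52, *Glut2* at 0.84 and *Glp1r* at 1.02, and the farthest gene was at 5.79. Of these 6 genes, *Ngn3* alone was divided by the *Gapdh* values of the hormones. The nearness of *Glut2* and *Glp1r* to *Glucagon* did not carry over to the raw Ct, by which the change of *Glucagon* was -2.17 cycles against *Glut2* and -1.94 cycles against *Glp1r*. These changes by Ct presume the same template input for all these genes, which is not stated.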

How the data were processed

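Total RNA of the samples was reverse transcribed and amplified with SYBR Green by the authors. They deposited the Ct of each gene, to 2 decimals and without normalization, and the linear ratio of each gene to *Gapdh*, to 7 decimals. The fold-change table holds the authors' own comparison and was not used. No pipeline, build or read depth applies to Ct values. Hormone rows were found by gene symbol and joined between the tables by row identifier, and their transcript identifiers matched INS and GCG in RefSeq. Groups and lines were taken from the sample titles. No sequences are shown, since none were read from the files used here.

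For relative mRNA expression, each ratio was set against the average of the 4 controls. The groups were compared by the test that the methods name for a pair of groups, Mann–Whitney U (exact, two-sided, at 0.05), which reaches p = 0.0286 only where groups do not overlap. Benjamini-Hochberg adjustment ran over the 13 genes. Intervals span all differences between an IPC and a control sample. The *Gapdh* Ct is Ct plus log2 of the ratio. Named genes were the hormones, *Gapdh*, 2 gene lists and, for each hormone, the 3 genes nearest in pattern. Members and lists were chosen with earlier results of these data known. Samples with the same number were taken to share a donor between groups and so to form pairs. Pearson's r between the deviations of a pair across the 13 genes ran from -0.125 to 0.535. Alternatives were other tests, pairing by line, leaving out lines, other references, geometric means, 1.9-fold amplification, the Ct limit and a Ct filter at 35. Python 3.11.15, numpy 2.4.6, scipy 1.17.1, matplotlib 3.10.9, R 4.3.3 and limma 3.58.1 were used. Each test was first run on simulated data with independent genes and large shifts. That simulation had no shared *Gapdh*, no pairing by line and no Ct limit, so it does not cover these features of the data.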

Additional observations from a re-analysis of the deposited data

How the results depend on the processing

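The hormone results depended on the reference. Without a reference, the amount of template loaded was not corrected for. *Insulin* was 0.754 times the controls without a reference and 1.08 times against the mean Ct of all other day 13 genes, with overlap in both. *Glucagon* turned to 0.0919 and 0.110 times the controls under the same settings, and to 0.325 times with the *Gapdh* of *Glut2* and *Glp1r*, without overlap in each. It was also 0.0841 times the controls with the Ct values within 1 cycle of 40 set to 45 cycles, which moved the change between the hormones from 3.005 to 8.30 cycles. The last 2 settings were chosen after the values were seen. Whether the *Gapdh* of *Glut2* and *Glp1r* shared the template input of the hormones is not stated, so that setting need not reflect expression. The count of genes without overlap, 11 higher and 0 lower, became 3 higher and 6 lower without a reference and against the mean Ct of all other day 13 genes, and 8 higher and 3 lower with the *Gapdh* of *Glut2* and *Glp1r*.

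With the replicate block by line, an exact sign-flip test over 4 pairs cannot go below p = 0.125, so no call was possible for *Insulin* (27.7 times), *Glucagon* (3.45 times), the change between the hormones (3.005 cycles) and *Gapdh* (5.16 cycles). In limma with the line as a factor, both hormones kept their direction and an adjusted p under 0.05. It used the same ratios to *Gapdh*, so it does not test a change of a hormone apart from *Gapdh* either. Leaving out each line gave 24.9 to 32.3 times for *Insulin*, 3.00 to 4.11 times for *Glucagon*, 2.95 to 3.04 cycles between the hormones and 5.11 to 5.20 cycles for *Gapdh*, with an exact p of 0.1, the smallest that 3 against 3 can give. No hormone Ct lay within 0.1 cycles of 40, so the planned limit settings gave no value, and the filter at a Ct of 35 removed both hormones. The mean Ct of late signals rests on an unknown number of wells.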

Other observations

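In the undifferentiated cells of line 1, the Ct was listed as 36.98 cycles for *Insulin*, for *Glucagon* and for *NeuroD1*. The ratio to *Gapdh* was 33.4 per 1000000 for both hormones and 23.7 per 1000000 for *NeuroD1*. In no other sample did a hormone share its Ct with another gene of day 13.

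The Ct of *Insulin* in IPCs had the smallest SD between lines of the 13 genes, 0.055 cycles, and the next smallest was 0.175 cycles. In undifferentiated cells its SD was 0.402 cycles, the order being 4 of 13 from the smallest. For *Glucagon*, the SD of the Ct was 0.203 cycles in IPCs, 4 of 13, and 0.579 cycles in undifferentiated cells, 8 of 13. Neither difference in spread was tested.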
